A study of Homo sapiens with 6 samples.

Results

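MACROD2 and 8 other very long human genes, FHIT, WWOX, LRP1B, CSMD1, IMMP2L, DLG2, CNTNAP2 and AGBL4, were followed through the chromatin compartments of T47D breast cancer cells. MACROD2 was chosen by its measured move from compartment B in T0 to compartment A in TamR, and the other 8 genes were named as long genes of common fragile sites with earlier results of these data known, so that every value of the T0 to TamR contrast is given as a description. The 9 genes are 9 of 19717 protein-coding genes with a scored bin and cover 165 bins of 100 Kb (any overlap with the gene body), of 27898 bins scored in all 6 libraries and 30376 bins in all. With 10 bins on either side of each gene, 180 flanking bins were added, and all of these bins had a score in every library. All 9 genes are long, at 899.87 to 2305.00 Kb, and CNTNAP2 ranks 2, DLG2 5, CSMD1 6 and MACROD2 7 by length among the protein-coding genes. Fragility itself was not measured in these data.

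T47D is a human cell line established from an estrogen receptor-positive breast tumour. Its parental cells, deprived of hormone for 72 h, were taken before E2 (estradiol), as T0, and 1, 4, 16 and 24 h after 100 nM E2, as T1, T4, T16 and T24, and a tamoxifen-resistant T47D line formed the last condition (TamR). The labels call the TamR cells untreated, whereas the methods describe TamR cells as kept in 100 nM tamoxifen, and they differ from the parental cells in culture as well as in resistance. Each condition was measured by TCC, a Hi-C protocol with the DNA tethered to a surface for ligation, in 1 library, so that differences between conditions have no replicate check and no p-value is given.

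In compartment analysis, contacts between chromosomes divide the genome into compartment A, generally gene-rich and open chromatin, and compartment B, generally inactive and late-replicating chromatin. Common fragile sites are regions that break under replication stress, and many of them lie inside very long genes, where few replication origins and long transcription units leave DNA to be copied late. FHIT and WWOX hold the best-known fragile sites and are often deleted in cancers.

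The deposited score of a bin is the first eigenvector of the contact matrix, positive in A and negative in B, and is given here multiplied by 1000. The squared scores of a library sum to between 0.998 and 0.999, so the size of a score has meaning only beside the other bins of the same library. Between 44.0% (T24) and 47.5% (TamR) of the scored bins were in A. Shares of bins that changed compartment are given over all bins of a set. Only bins in B in T0 can go from B to A, and only bins in A can go from A to B. The score correlated along the bins at r of 0.985 to 0.996 between parental libraries and at 0.894 to 0.901 between TamR and a parental library. Bins are neighbours along chromosomes and not replicates. The 5 parental libraries are different time points, and their range is given beside TamR as a description of how far a value moved without the change of cells.

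The start of MACROD2, of AGBL4 and of LRP1B is shown by the 250 bases before the annotated gene start (hg19, GENCODE), because the first pair were the genes whose every bin went from B to A and LRP1B stayed in B throughout. Capitals mark CpG dinucleotides, and each sequence is written 5′ to 3′ on the strand of its gene. MACROD2 is at chr20:13975765-13976014 (+), AGBL4 at chr1:50489627-50489876 (−) and LRP1B at chr2:142888586-142888835 (−).
MACROD2: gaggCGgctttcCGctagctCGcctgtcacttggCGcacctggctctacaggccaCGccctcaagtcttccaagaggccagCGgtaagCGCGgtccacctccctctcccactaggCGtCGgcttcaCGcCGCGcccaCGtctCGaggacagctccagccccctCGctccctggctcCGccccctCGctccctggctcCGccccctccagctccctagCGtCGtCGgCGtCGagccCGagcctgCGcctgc
AGBL4: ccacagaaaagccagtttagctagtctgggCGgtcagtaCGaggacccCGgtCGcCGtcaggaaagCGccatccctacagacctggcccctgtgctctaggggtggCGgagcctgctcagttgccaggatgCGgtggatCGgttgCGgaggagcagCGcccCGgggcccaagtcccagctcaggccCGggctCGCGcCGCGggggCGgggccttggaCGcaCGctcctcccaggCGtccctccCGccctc
LRP1B: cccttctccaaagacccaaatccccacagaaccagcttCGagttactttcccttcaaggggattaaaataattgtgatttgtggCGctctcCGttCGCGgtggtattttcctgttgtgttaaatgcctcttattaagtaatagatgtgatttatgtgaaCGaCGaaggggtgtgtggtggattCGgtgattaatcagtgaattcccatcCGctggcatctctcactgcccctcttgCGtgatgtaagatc
The MACROD2 stretch has a GC content of 71.2% and 26 CpGs and that of AGBL4 70.4% and 22. That of LRP1B has 45.6% and 10, the lowest of the stretches given here. Those of CNTNAP2 (64.4%, 15 CpGs), DLG2 (62.4%, 19), IMMP2L (57.2%, 19), WWOX (54.8%, 14) and FHIT (53.6%, 11) lie between. A link between these stretches and the compartment was not tested. Over 20094 protein-coding genes the medians of such stretches are 59.6% and 14 CpGs. The letters GGTCA, 1 arm of an estrogen response element, searched on both strands, has no match in the MACROD2 and LRP1B stretches and 1 in that of AGBL4, and 32.6% of all such stretches hold it. A match of letters is a description and not a bound site.

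MACROD2 encodes a macrodomain protein that removes mono-ADP-ribose from other proteins. The gene (ENSG00000172264.19_16, hg19 chr20:13976015-16033842, + strand) overlaps 22 bins, has 18 exons in its canonical transcript and holds the nested gene FLRT3, an adhesion protein of the FLRT family. Its median score was -2.14 in T0, -2.20 in T1, -1.65 in T4, -1.68 in T16, -1.65 in T24 and 2.96 in TamR. The 5 parental values lay within 0.551 of each other and all in B, and TamR alone was in A, 4.61 above the highest of them. No bin of the gene changed compartment in the E2 course, beside 7.11% of all scored bins. With 22 neighbouring bins, this count is a description only.

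All 22 bins went from B in T0 to A in TamR (100%, 95% Wilson interval over bins 85.1 to 100%), the move for which the gene was chosen, against 7.67% of all scored bins and 11.0% of the bins inside genes of 500 Kb or more. The bins of 1 gene are neighbours, so the interval is too narrow. The bin scores ran from -7.54 to -0.440 in T0 and from 0.931 to 3.79 in TamR. Among all 19717 genes, the MACROD2 median stood at percentile 14.3 in T0 and at 36.3 in TamR. Among the large genes alone it stood at percentile 58.7 in T0 and 85.1 in TamR. In TamR, then, the gene sat below the middle of all genes and above the middle of the large ones.

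**Figure D1:**
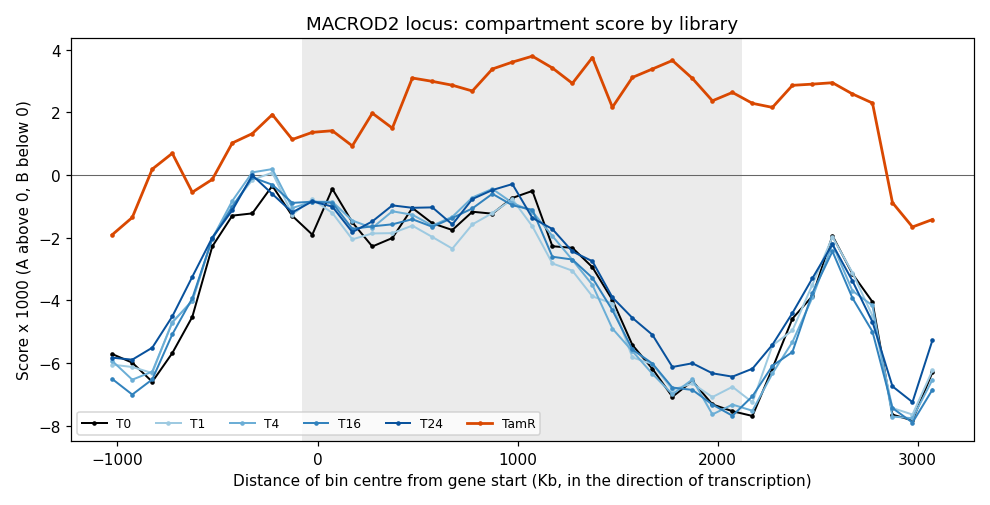
Compartment score x 1000 (y axis) of each 100 Kb bin along the MACROD2 gene body (grey) and 10 bins on either side, against the distance of the bin centre from the gene start in Kb (x axis), with 1 line per library. The parental lines fall from near -1.5 in the 5′ part to below -6 at the 3′ end, and the TamR line lies above 0 over the whole gene, from 0.931 to 3.79.

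The move was unequal along MACROD2. In T0 the first 7 bins had a median of -1.54, the middle 8 of -1.49 and the last 7, at the 3′ end, of -6.57. In TamR the same parts stood at 1.50, 3.40 and 3.08. The 3′ part, deepest in B in the parental cells, thus had the greatest difference of the 3 parts, with a median of 9.66 over its bins against 3.51 in the 5′ part.

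The bin with the gene start gave -1.90 in T0, -0.771 in T1, -0.851 in T4, -0.850 in T16, -0.839 in T24 and 1.36 in TamR. All 4 E2 libraries were above T0 in this bin, by less than the step to TamR, and all remained in B. Over the 22 bins, T0 correlated with the 4 E2 libraries at r of 0.975 to 0.985 and with TamR at -0.166. The slope along the gene seen in the parental libraries was thus not kept in TamR. These points share a locus and neighbouring fragments.

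The change did not follow the borders of the gene. The unbroken run of B to A bins around MACROD2 was chr20:13500001-16800000, with 33 bins, 31 of which were in B in all 5 parental libraries. It overlaps 9 protein-coding genes, of which the first 5 are TASP1 (a protease), ESF1 (a nucleolar protein of ribosome synthesis), NDUFAF5 (an assembly factor of mitochondrial complex I), SEL1L2 and MACROD2 itself. Of the 20 flanking bins, 13 went from B to A and 7 stayed in B.

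Just outside the run, the bin on the left scored -2.28 in T0 and -0.138 in TamR, and the bin on the right -7.65 and -0.881, so both were higher in TamR and stayed in B. The median difference was 4.62 over the gene's bins (1.85 to 10.7), 3.18 over the 10 upstream bins and 6.55 over the 10 downstream bins. The gene minus its flanks was -0.693, and this value turned positive with 5 flanking bins (0.905), with 20 (0.796) and with means (0.582), so its sign depends on the choice of flanks and summary.

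The B compartment that held MACROD2 spanned 12.4 Mb in T0, T16 and T24 and 3.7 Mb in T1 and T4. The shorter span came from single bins upstream of the gene that lay just above 0, at 0.0773 in T1 and at 0.0859 and 0.191 in T4. In TamR the gene lay in an A compartment of 3.3 Mb. On its left, bins at -0.138 and -0.548 parted it from another pair of A bins at 0.694 and 0.190, so that this edge lay close to the border.

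A full palindromic estrogen response element, searched as GGTCANNNTGACC, has 1 match in the MACROD2 body, at chr20:14931471-14931483 in an intron 955.456 Kb from the gene start. It is printed with 10 bases on either side and the match in capitals, because it lies in the bins that changed.
MACROD2 intron match: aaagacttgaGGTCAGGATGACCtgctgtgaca
Its bin scored -0.731 in T0 and 3.61 in TamR. Such a match occurs in 9 of the 165 bins of the 9 genes (5.45%) and in 7.17% of all scored bins, and binding was not measured in these files.

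AGBL4 encodes a cytosolic carboxypeptidase that trims glutamate residues from tubulin. The gene (ENSG00000186094.18_13, chr1:48998526-50489626, − strand) overlaps 16 bins, with BEND5 and AL645730.2 nested in it. Its median was -4.98 in T0, -5.09 in T1, -5.60 in T4, -5.19 in T16, -5.65 in T24 and 3.38 in TamR. The parental values spread over 0.673 in B, and TamR alone was in A. The difference of 8.36 between TamR and T0 ranked 4 among 323 protein-coding genes of 500 Kb or more, where MACROD2 ranked 23.

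All 16 bins of AGBL4 went from B to A (80.6 to 100%), against 7.67% of all scored bins, and none changed in the E2 course, against 7.11%. The highest parental bin score in the gene was -2.24, in T4, so no bin lay close to the border in the E2 course. The bins ranged from -7.19 to -2.67 in T0 and from 1.24 to 4.49 in TamR. The middle part of the gene went from -6.28 to 4.28. The profile along the gene was not kept between T0 and TamR (r = -0.143, n = 16 bins, against 0.885 to 0.961 between T0 and the E2 libraries). The gene went from percentile 7.02 to 38.3 among all genes.

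The run of B to A bins around AGBL4 was chr1:48300001-51300000, 30 bins, of which 28 were in B in all 5 parental libraries. Its first 5 genes in genome order are TRABD2B, AL109659.1, SLC5A9 (a sugar transporter), SPATA6 and AGBL4. The AGBL4 region was an island of B between A stretches in the parental cells, with 2.8 to 3.0 Mb in each library. In TamR it was part of an A compartment of 27.2 Mb (chr1:30000001-57200000). Whether other parts of that stretch were in B in the parental cells was not examined.

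**Figure D2:**
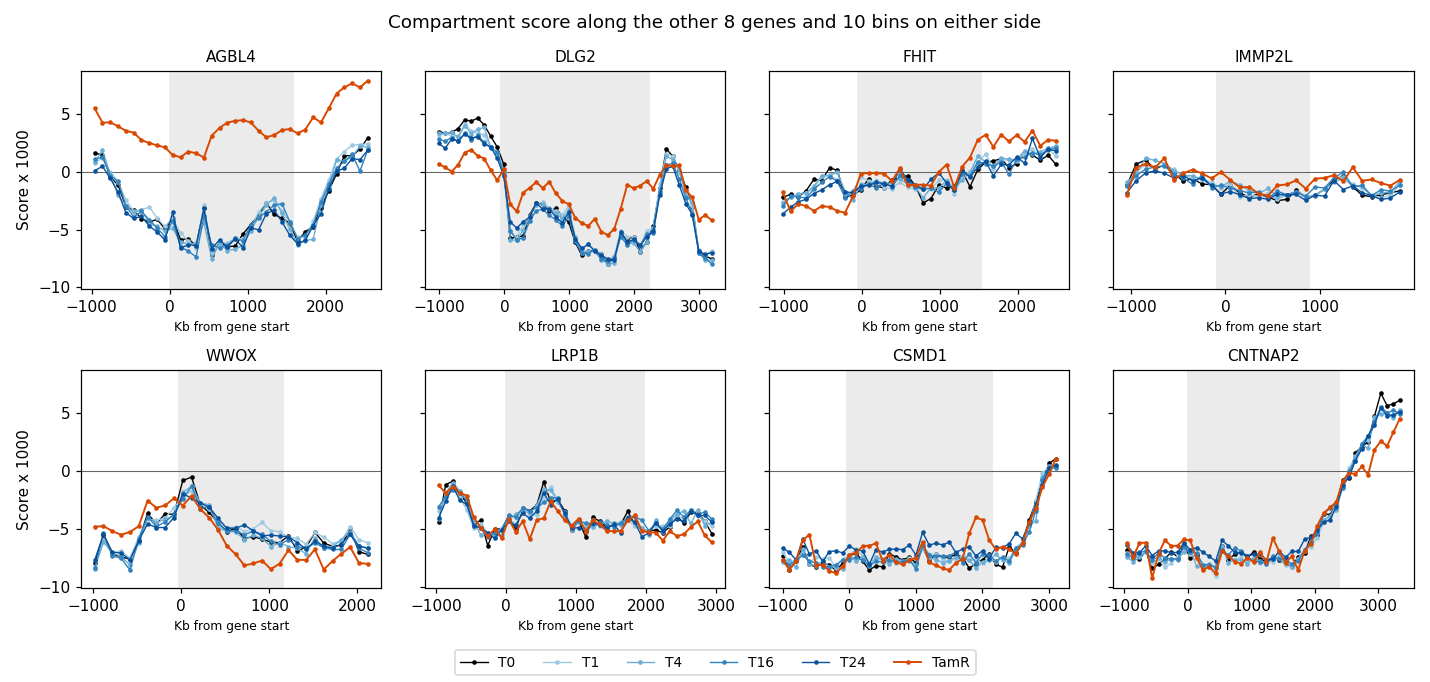
Compartment score x 1000 (y axis) of each bin along the other 8 genes (grey) and 10 bins on either side, against distance from the gene start in Kb (x axis), with 1 line per library. TamR is above 0 over all of AGBL4, lies above the parental lines in 22 of 23 bins of DLG2 and below them in 11 of 12 bins of WWOX, and is above them in 8 and below in 6 of 24 bins of CNTNAP2, and above in 7 and below in 6 of 22 bins of CSMD1. Of all scored bins, 35.0% were above and 43.6% below all 5 parental libraries.

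DLG2 encodes a scaffold protein of synapses. The gene (ENSG00000150672.19_19, chr11:83166055-85339379, − strand, 23 bins) had a median of -5.64 in T0, -5.15 in T1, -5.86 in T4, -5.70 in T16, -5.18 in T24 and -2.51 in TamR. TamR was 2.65 above the highest parental value and still in B. In TamR 22 of its 23 bins were above all 5 parental libraries, as were 35.0% of all scored bins. No bin went from B to A, beside 7.67% of all scored bins. DLG2 thus had nearly every bin higher in TamR, as MACROD2 and AGBL4 did, but by less than its distance from the border.

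The higher scores of DLG2 in TamR were not shared by its upstream flank. The median difference was 2.33 over the gene's bins, -2.93 over the 10 bins upstream, which were mostly in A, and 1.01 over the 10 bins downstream. The bin with the gene start lies at the edge of that A stretch and scored 0.667 in T0, 0.0364 in T1, 0.181 in T4, -0.171 in T16, -0.323 in T24 and 0.221 in TamR. It was the only bin of DLG2 that changed compartment in the E2 course, beside 7.11% of all scored bins. Along the gene T0 and TamR correlated at r = 0.734 over 23 bins, so much of the parental profile was kept at a higher level.

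FHIT encodes a hydrolase of diadenosine triphosphate and is a tumour suppressor gene at a common fragile site. The gene (ENSG00000189283.11_10, chr3:59733003-61237133, − strand, 16 bins) had a median of -1.22 in T0, -0.915 in T1, -1.01 in T4, -1.18 in T16, -0.935 in T24 and -0.130 in TamR. It was the gene nearest to the border in every library. From T0 to TamR it had 3 bins from B to A (18.8%, 6.59 to 43.0%), 2 in A in both and 11 in B in both. That interval includes the 7.67% of all bins and the 11.0% of the bins in large genes.

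The 3 bins of FHIT that went from B to A were not adjacent. They started at positions 59800001, 60100001 and 60700001 of chromosome 3. In the E2 course 3 of the 16 bins also changed sign, beside 7.11% of all scored bins. The bin at chr3:59800001-59900000 scored -1.29 in T0, 0.0568 in T1, -0.0713 in T4, -0.372 in T16, -0.439 in T24 and 1.25 in TamR, so it was near 0 after E2 too. The B compartment around the middle of FHIT spanned 1.5 Mb in T0, 5.9 Mb in T1, 6.0 Mb in T4 and T16, 0.7 Mb in T24 and 0.5 Mb in TamR, because single bins near 0 split it.

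WWOX encodes an oxidoreductase with WW domains and is likewise a tumour suppressor gene at a common fragile site. The gene (ENSG00000186153.19_9, chr16:78133297-79246564, + strand, 12 bins) had a median of -5.10 in T0, -4.64 in T1, -5.24 in T4, -5.18 in T16, -4.81 in T24 and -6.84 in TamR. It was the only one of the 9 whose median went below the parental range in TamR, by 1.60, and with means LRP1B did so too. In TamR 11 of its 12 bins were below all 5 parental libraries, as were 43.6% of all scored bins.

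All 12 WWOX bins stayed in B in T0 and TamR and through E2. Of all scored bins, 7.67% went from B to A in TamR and 7.11% changed in the E2 course. The start bin scored -0.813 in T0 and stood at -2.21 in T1, -1.83 in T4, -2.41 in T16, -1.99 in T24 and -2.99 in TamR, lower than T0 in all 5 other libraries. The 3′ part went from -6.03 in T0 to -8.01 in TamR. The 10 upstream bins moved the other way, by a median of 1.39, and the downstream bins by -1.17. The parental profile was kept, with r = 0.949 between T0 and TamR over 12 bins.

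IMMP2L encodes a subunit of the inner mitochondrial membrane peptidase. The gene (ENSG00000184903.10_9, chr7:110302700-111202573, − strand, 10 bins, with LRRN3 nested in it) had a median of -2.05 in T0, -2.01 in T1, -1.66 in T4, -1.73 in T16, -1.99 in T24 and -1.24 in TamR. TamR was 0.419 above the highest parental value and in B. None of its 10 bins changed compartment in the E2 course, beside 7.11% of all scored bins. None went from B to A in TamR, beside 7.67%. The start bin came nearest to the border in TamR, at -0.0159 after -1.93 in T0.

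LRP1B, a receptor of the low-density lipoprotein receptor family, had a median of -4.16 in T0, -4.22 in T1, -4.28 in T4, -4.00 in T16, -4.47 in T24 and -4.31 in TamR (ENSG00000168702.18_14, chr2:140988992-142888585, − strand, 20 bins). The TamR median lay inside the parental range, but the mean over bins, at -4.51, lay below the parental means of -4.22 to -3.88. Of the 20 bins, 10 were below and 2 above all parental libraries in TamR, beside 43.6% and 35.0% of all scored bins. The B compartment around LRP1B spanned 10.2 Mb in T0, at most 10.4 Mb in T1, T4 and T16, 13.2 Mb in T24 and 13.9 Mb in TamR, with the gene inside it throughout.

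CNTNAP2, a neurexin-family adhesion protein of axons, and CSMD1, a membrane protein that regulates complement, were the deepest in B. The CNTNAP2 median (ENSG00000174469.23_16, chr7:145813094-148118090, + strand, 24 bins) was -7.43 in T0, -7.56 in T1, -7.67 in T4, -7.30 in T16, -6.97 in T24 and -7.37 in TamR. That of CSMD1 (ENSG00000183117.20_17, chr8:2792875-4852494, − strand, 22 bins) was -7.47, -7.61, -7.72, -7.68, -6.79 and -7.38 in the same order. In both, the TamR median lay inside the parental range and T24 was the least negative library. Over all scored bins too, the lowest score was least negative in T24, at -9.16, so this trait is not particular to these genes. In CSMD1 the 3′ part went from -7.46 in T0 to -5.97 in TamR, while the middle went from -7.46 to -7.90.

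**Figure D3:**
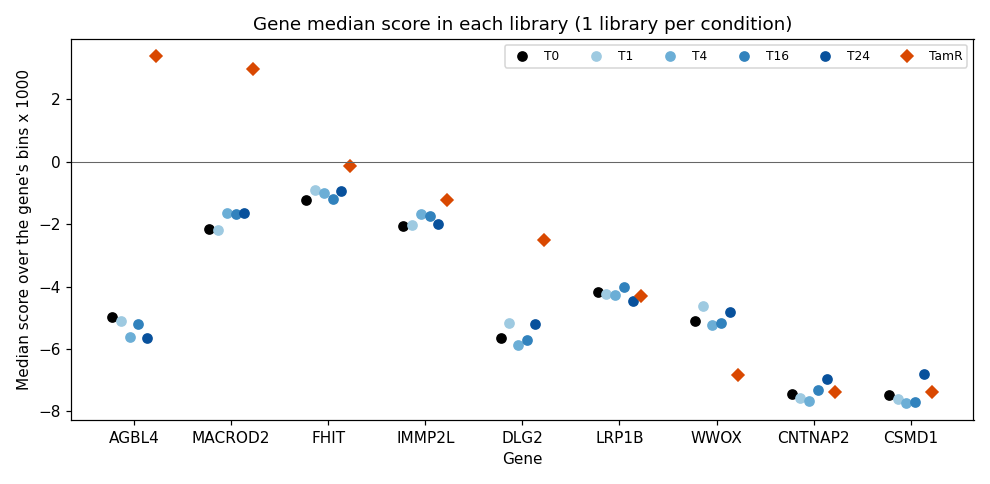
Median score x 1000 over the bins of each of the 9 genes (y axis) in each of the 6 libraries (points, 1 library per condition, so no error bars), with the genes in order along the x axis. In TamR (diamonds) AGBL4 is at 3.38 and MACROD2 at 2.96, above 0, and the other 7 genes are below 0 in every library.

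By their T0 medians the 9 genes ran, from the highest, FHIT, IMMP2L, MACROD2, LRP1B, AGBL4, WWOX, DLG2, CNTNAP2 and CSMD1, and all were in B. IMMP2L and MACROD2 overlapped in their parental ranges, as did AGBL4, WWOX and DLG2, and CNTNAP2 and CSMD1. In TamR the order was AGBL4, MACROD2, FHIT, IMMP2L, DLG2, LRP1B, WWOX, CNTNAP2 and CSMD1. In TamR 5 of the 9 medians were above the range of the 5 parental libraries (41.2% of the 323 large genes were), 1 was below it (44.6% of the large genes) and 3 were inside it.

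Over the 9 genes, 41 of 165 bins went from B to A (24.8%, 18.9 to 32.0%) and 0 from A to B, where 6.27% of all scored bins went from A to B. Only 3 of the 165 bins were in A in both, so few could have moved to B. MACROD2 and AGBL4 held 38 of the 41 B to A bins. Without MACROD2, which was chosen for the move, 19 of 143 bins of the other 8 genes went from B to A (13.3%, 8.67 to 19.8%), beside 7.67% of all bins and 11.0% of the bins in large genes. Of those 19 bins, 16 were in AGBL4. The other 7 genes, set apart from AGBL4 after its values were seen, had 3 of 127 (2.36%, 0.807 to 6.72%). Only bins in B in T0 could go from B to A. Beside their 19 such bins, the 8 genes had 121 in B in both conditions and 3 in A in both. All scored bins had 12876 in B in both and 11133 in A in both, beside 2141 from B to A. The higher share of the 8 genes is thus not read as more moves among bins able to make them.

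With the sign of the score as the border, few bins of these genes changed compartment through the E2 course. Of the 165 bins, 4 differed in compartment from T0 in 1 or more E2 libraries (2.42%, 0.947 to 6.07%), 3 in FHIT and 1 in DLG2, against 7.11% of all scored bins. This readout played no part in the choice of MACROD2. In all large genes, these genes included, 195 of 3027 gene bins differed from T0 in this way. The share depends on how many bins lie near the border, and it was 13.3% with the border set at the median of each library. No share of all scored bins was computed with that border, so the comparison with 7.11% holds only for the sign of the score.

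**Figure D4:**
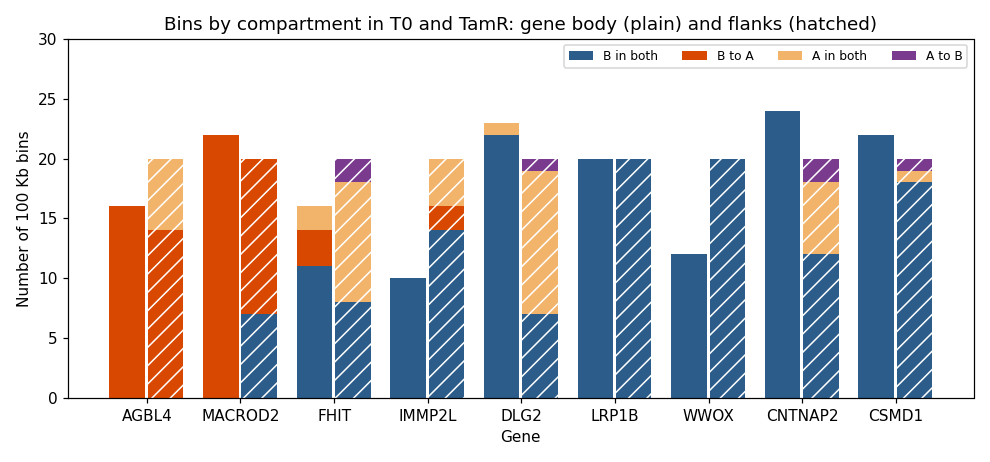
Number of 100 Kb bins (y axis) by compartment in T0 and TamR for each gene (x axis), with the gene body as plain bars and the 20 flanking bins as hatched bars. The bodies of AGBL4 (16 bins) and MACROD2 (22 bins) and 14 and 13 of their flanking bins went from B to A, FHIT had 3 such bins, and the other 6 bodies had none.

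The flanks of the 9 genes held 29 B to A bins of 180 (16.1%, beside 7.67% of all bins), and 27 of them lay beside MACROD2 and AGBL4. The others were 2 beside IMMP2L. Bins that went from A to B were found only in flanks (6 of 180, 3.33%, beside 6.27% of all bins). They were 2 each beside FHIT and CNTNAP2 and 1 each beside CSMD1 and DLG2. The flanks had 39 bins in A in both conditions and the gene bodies 3, so more flank bins could have moved to B. Chromosome 20, which carries MACROD2, had 11.4% of its bins from B to A and 2.68% from A to B, and chromosome 1, which carries AGBL4, 8.34% and 5.23%. The run around MACROD2 made up 33 of the 68 B to A bins of chromosome 20. That around AGBL4 made up 30 of the 185 of chromosome 1. These shares thus include the loci they stand beside. The median difference between TamR and T0 was 0.176 on chromosome 20, -0.312 on chromosome 1 and -0.268 over all scored bins.

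The 9 genes had little exon sequence, as large genes do. Exons covered 0.441% (IMMP2L) to 1.54% (WWOX) of the gene, where the median was 1.37% in the 323 large genes and 16.7% in all protein-coding genes. GC content of the gene bodies ran from 34.8% in LRP1B to 42.6% in WWOX, with MACROD2 at 37.9% and AGBL4 at 39.0%. Bins of the 9 genes had a median GC of 37.7%, beside 38.03% for the bins of all large genes, 37.4% for all bins in B in both conditions, 39.9% for all bins that went from B to A and 39.8% for all scored bins. WWOX was above the last of these. MACROD2 and AGBL4 stood inside the range of the other 7 genes in GC content and in exon content.

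Runs of alternating A and T of 24 bases or more, a kind of flexible sequence described at fragile sites, occurred in 45.5% of the bins of the 9 genes, 38.4% of all scored bins and 43.0% of bins in B in both conditions. WWOX had the most per length, 8.98 per Mb, and holds the longest run of the 9 genes, 74 bases. IMMP2L had 2.22 per Mb, AGBL4 3.35 and MACROD2 4.86, the lowest 3 values. The number of sites of HindIII (AAGCTT), the enzyme used in the TCC, was a median of 31 per bin in the 9 genes and 29 in all scored bins.

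Set among the 323 protein-coding genes of 500 Kb or more, whole-gene moves were uncommon. In 13 of them (4.02%) every bin went from B to A, and MACROD2 and AGBL4 were the longest of the 13. The others were ASIC2, LRMDA, PARD3B, HPSE2, SOX6, BBS9, FAT3, DNM3, ENOX1, GRIN2B and GLIS3. SOX6, a transcription factor, went from -7.01 to 3.79, further than either. Of the 323 medians, 238 (73.7%) were in B in T0 and 38 of these were in A in TamR. From the smaller number in A in T0, 22 went to B. Of all 19717 genes, 4449 medians (22.6%) were in B in T0 and 1021 of these were in A in TamR. From the larger number in A, 882 went to B.

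The 5 large genes whose 6 medians lay nearest to those of MACROD2, by Euclidean distance among 322, were DNM3 (1.03), CSMD2 (1.14), FARS2 (1.50), ASIC2 (1.67) and LRMDA (1.83). DNM3, a dynamin, went from -1.83 in T0 to 2.86 in TamR, and CSMD2, a relative of CSMD1, from -2.70 to 2.57. These genes lie on chromosomes 1, 6, 10 and 17, so none is a neighbour of MACROD2.

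**Figure D5:**
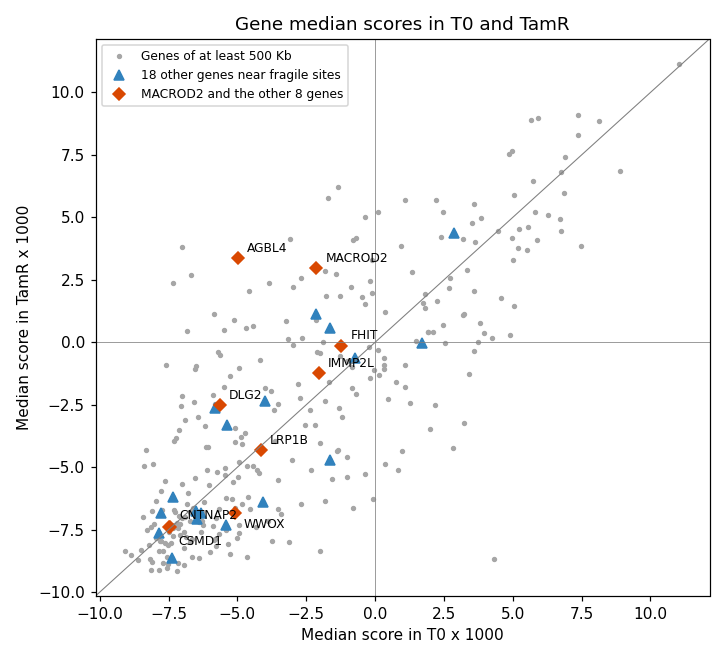
Median score x 1000 of each protein-coding gene of at least 500 Kb in T0 (x axis) and TamR (y axis), with 1 library per condition, the 9 genes as labelled diamonds, 18 other genes at or near fragile sites as triangles, and the diagonal as the line of equal scores. MACROD2 (-2.14 and 2.96) and AGBL4 (-4.98 and 3.38) lie in the upper left part, with 36 other large genes, and WWOX (-5.10 and -6.84) lies below the diagonal.

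Among 18 other large genes at or near common fragile sites, a list made with earlier results known, 9 medians were above the parental range in TamR, 7 below and 2 inside it. Of the 323 large genes, 41.2% had a median above that range and 44.6% below it. The 18 genes had a median difference between TamR and T0 of 0.157 (-3.09 to 3.26), beside -0.153 in the 323 large genes and 0.811 in the 9 genes. Of 264 gene bins, 22 went from B to A (8.33%, beside 7.67% of all bins and 11.0% in large genes) and 5 from A to B (1.89%, beside 6.27% of all bins), and none of the 18 genes moved in every bin. Of the 18 medians, 16 (88.9%) were in B in T0. A larger part of these bins than of all bins could thus move to A, and a smaller part to B. The shares do not compare bins able to make each move.

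Those of the 18 with the largest differences went both ways. AUTS2, a neuronal regulator of transcription, went from -2.14 in T0 to 1.12 in TamR with 12 of 13 bins from B to A, and PDE4D, a cAMP phosphodiesterase, from -1.64 to 0.570 with 6 of 17. CTNNA3 (an alpha-catenin) went from -5.82 to -2.63 and DAB1 (an adaptor of reelin signalling) from -5.37 to -3.31, both within B. CCSER1 went from -1.62 to -4.71, deeper into B. The 18 genes thus held higher, lower and little changed medians in TamR, as the 9 genes and the large genes as a whole did.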

How the data were processed

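TCC with HindIII had been performed on the parental line before and at 4 times after E2 and on TamR, 1 library each. According to the paper's methods, the authors aligned reads iteratively to hg19 with bowtie2, removed low-coverage bins, truncated extreme counts, corrected the matrix, dropped contacts within chromosomes and computed the eigenvector with HiCLib. The paper's reporting summary says that the data were replicated, but 1 file per T47D condition was analysed here, and whether it pools cultures is not given in the sources used here. The authors deposited 1 score per 100 Kb bin, scaled within each library. The files hold no contact counts, so library depth is unknown, and neither expression nor copy number was analysed here.

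A score of 0 was read as missing. The sign gave the compartment (A above 0, B below 0), and all bins overlapping a protein-coding gene of GENCODE release 44 on GRCh37 were its bins. Chromosome lengths were equal on 23 of 23 chromosomes. Gene medians, differences, shares with 95% Wilson intervals and percentiles were computed with numpy 2.4.6 and pandas 2.3.3 under Python 3.11.15, and the counting was tested on simulated data. Sequences were read from GRCh37.

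The members and lists were chosen with earlier results of these data known. Named were the 9 genes, up to 6 of 18 other fragile-site genes by the largest difference of medians between TamR and T0, the 5 large genes nearest to MACROD2 and at most 5 genes per changed run in genome order. The genes whose bins all went from B to A, SOX6 among them, were named after their values were seen. One gene that the rule would name is not reported here. Alternatives were another border, stricter overlap, weak bins left out, other references, means, scaling by the standard deviation, 5 or 20 flanking bins and each E2 library left out.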

Additional observations from a re-analysis of the deposited data

How the results depend on the processing

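No paired analysis was possible because no condition had a second library. A share was taken as moved when it left its Wilson interval, a count when it changed by over 1.5 times, and a score or percentile when it changed by more than the SD of the 5 parental libraries, which are time points and not replicates. Of 146 alternative values, 86 did not move, 49 moved and 11 changed sign. Some could hardly move, because every bin of the 9 genes had a score and the SD was 5.98 in each library. Percentiles among large genes only swap the comparison set. These counts thus do not measure how firm the results are. The share of bins changed in the E2 course went from 2.42% to 13.3% with the border at the library median and to 0% with weak bins left out. With means, 2 genes (WWOX and LRP1B) and not 1 were below the parental range. The MACROD2 percentile went from 14.3 to 58.7 in T0 and from 36.3 to 85.1 in TamR among large genes only, and to 11.6 in T0 with means. Gene minus flanks turned sign in MACROD2 (0.582 with means, 0.905 with 5 and 0.796 with 20 flanking bins), FHIT (-0.121 with 20, -0.108 against the parental mean), LRP1B (-0.302 with means, -0.0382 against the parental mean), CSMD1 (-0.0929 with 20) and CNTNAP2 (-0.403 with 5, -0.0964 with 20, -0.0670 against the parental mean), and the cause was not tested. The B to A shares of the 9 genes and of MACROD2 did not move under any alternative run. Depth is unknown, a single library stands for each condition, and scores near 0 change sign easily, as in FHIT.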
